A study of Mus musculus with 18 samples.

Results

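The 5 C/EBP transcription factor genes, Cebpa, Cebpb, Cebpd, Cebpe and Cebpg, were followed through mouse liver after treatment with the amino acid depleting enzyme L-asparaginase (ASNase). They were chosen by name, as every gene of the expression table whose symbol was one of these 5, out of 37303 genes listed. C/EBP proteins carry a basic region that contacts DNA and a leucine zipper through which they pair with each other or with related factors such as ATF4. In hepatocytes C/EBPα is known for holding up genes of metabolism and of the differentiated state, whereas C/EBPβ and C/EBPδ are known for driving the acute phase response to cytokines. C/EBPγ lacks the activation domains of its relatives and is a partner of ATF4 at amino acid response genes, and C/EBPε is best known from the maturation of granulocytes.

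RNA-Seq was done on livers of 18 mice in 6 groups of 3. Wild type (WT) mice, mice deleted for Gcn2 (Gcn2-/-, lacking the kinase that senses amino acid shortage) and mice deleted for Atf4 (Atf4-/-, lacking the transcription factor synthesized after that kinase acts) received either ASNase or phosphate buffered saline (PBS), the excipient, in 8 daily intraperitoneal injections. The ASNase dose was 3 IU per gram body weight, and livers were taken 7.5 h after the last injection by the labels. All mice were on the C57BL/6J background, both deletions were present in the whole body, the labels give ages of 8 to 16 weeks and the protocol 8 to 12 weeks. Each group held both sexes, with 1 male of 3 mice in WT PBS, Gcn2-/- PBS and Gcn2-/- ASNase, and 2 males of 3 in WT ASNase, Atf4-/- PBS and Atf4-/- ASNase. Sex was therefore not balanced between WT PBS and WT ASNase, between Gcn2-/- ASNase and WT ASNase, or between Atf4-/- PBS and WT PBS. Nor was sex balanced between Atf4-/- and Gcn2-/- mice under either treatment. Its part in the results was not tested.

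The table gives 1 FPKM (sequenced fragments, scaled by transcript length and by the total mapped) for each gene and group, estimated from the 3 libraries together, with a lower and an upper confidence limit. No single-library values were at hand, so there is no SD and no replicate test, and every error below is the interval of the group value, written in parentheses after it. Intervals were wide, with a median distance from value to limit between 51.3% and 54.2% of the value among genes over an FPKM of 3, so that only large differences could be told from error. Groups were compared on log2(FPKM + 0.1), and a gene was called different when either FPKM was over 3, the intervals were apart and the log2 values lay more than 1.5 from each other in size. Differences of low genes are understated on this scale. In whole liver, fewer cells of a type and less RNA per cell cannot be told apart. All 30 values of the 5 genes had a valid estimate.

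The tissue label was checked against hepatocyte genes. Hnf4a lay between 145 and 213 FPKM and Asgr1 between 357 and 451 in the 6 groups, whereas Alb and Trf had no estimate and are listed at 0. Atf4 was at 50.4 and 63.1 FPKM in WT PBS and WT ASNase, at 60.0 and 68.1 in the corresponding Gcn2-/- groups and at 32.3 and 29.3 in the Atf4-/- groups, lowest where it is deleted but with intervals that overlapped those of WT. Eif2ak4, which encodes GCN2, lay between 2.19 and 3.14 FPKM in all groups and did not separate the genotypes. The table gives 1 value for a whole gene and does not show which exons the reads came from. Skeletal muscle genes differed between strains already under PBS. Over 15 such genes FPKM summed to 952 under PBS and 1348 under ASNase in WT livers, whereas Gcn2-/- livers had 10.7 and 12.8 and Atf4-/- livers 79.6 and 165. The part of this difference in comparisons between strains was not tested.

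Cebpa and Cebpb, the most abundant members, lie on different chromosomes and held different motif matches before their starts. In GRCm38 with the GENCODE M21 annotation, Cebpa lies on the plus strand of chromosome 7 from 35119293 to 35121928, and Cebpg lies on the minus strand of the same chromosome from 35046422 to 35056573, with 62720 bases between them and no other protein-coding gene in that gap. Cebpb lies on the plus strand of chromosome 2 from 167688915 to 167690418 as a single exon. Cebpd lies on the plus strand of chromosome 16 from 15887286 to 15891031, and Cebpe on the minus strand of chromosome 14 from 54710360 to 54712174. The 250 bases before the start of Cebpa (chr7:35119043-35119292) and of Cebpb (chr2:167688665-167688914), both on the plus strand of GRCm38.p6 and from RefSeq, are shown because these genes made up most of the family in every group. Capitals mark matches to TATAAA (the TATA box) in Cebpa and to TGACG, on either strand, in Cebpb. TGACG is contained in the longer TGACGT searched too, and is the start of the cyclic AMP response element that CREB and ATF factors bind.
Cebpa: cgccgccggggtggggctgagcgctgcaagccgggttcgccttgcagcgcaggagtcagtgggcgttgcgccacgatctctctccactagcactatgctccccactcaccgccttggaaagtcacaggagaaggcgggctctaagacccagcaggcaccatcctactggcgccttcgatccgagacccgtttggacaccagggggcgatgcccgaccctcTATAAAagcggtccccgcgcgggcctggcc
Cebpb: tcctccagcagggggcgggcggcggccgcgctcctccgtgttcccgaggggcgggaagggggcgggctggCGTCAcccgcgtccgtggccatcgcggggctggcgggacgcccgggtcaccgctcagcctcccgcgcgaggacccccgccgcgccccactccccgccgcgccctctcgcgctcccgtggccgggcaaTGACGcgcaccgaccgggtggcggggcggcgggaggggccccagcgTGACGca

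The start regions were rich in G and C. GC content was 66.4% for Cebpa, 81.6% for Cebpb and 70.8% for Cebpg, against a median of 52.4% over 32851 mouse promoters. The dinucleotide CG occurred 22, 41 and 29 times, against a median of 6. Cebpa held TATAAA with its first base 30 bases before the start, a match found in 13.6% of all promoters searched over the same 300 bases, 250 before and 50 after the start. Cebpb held TGACG 3 times before the start, a sequence found at least once in 20.8% of promoters, and TATAAA from position 21 after the annotated start. Cebpg held CCAAT on the reverse strand at 2 positions, and 37.4% of promoters held it at least once on either strand. Searched on both strands, TTGCNNAA and the shorter TTNNGNAA (both C/EBP, and able to overlap), TGATGNAA (the C/EBP and ATF composite), TGACGT (part of the cyclic AMP response element) and TTCCNGGAA and TTCNNNGAA (STAT, the first contained in the second) had no match in the windows of these 3 genes, and 10.8%, 40.7%, 3.97%, 7.51%, 1.15% and 8.30% of all promoters held them. These are matches of letters and no evidence of binding.

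**Figure D1:**
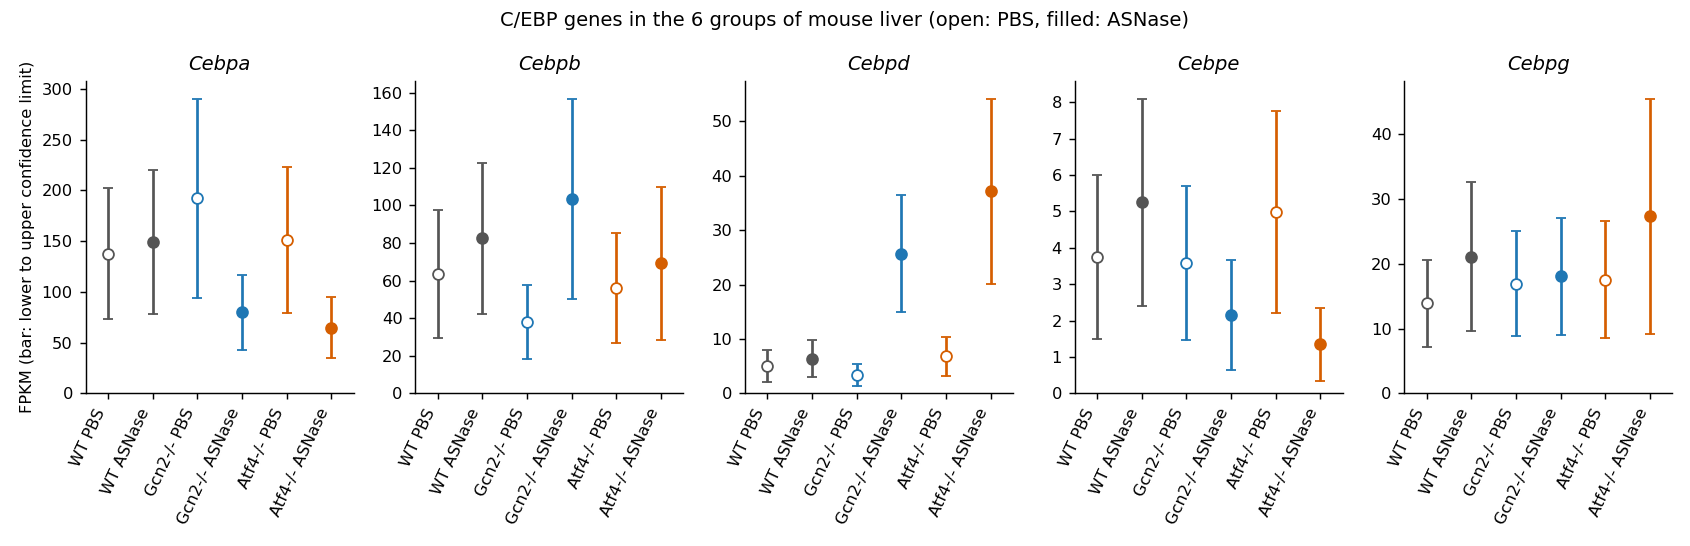
FPKM of the 5 C/EBP genes (vertical axes, linear and starting at 0, each with its own scale) in the 6 groups (horizontal axis); points are the group values and bars reach from the lower to the upper confidence limit. Cebpd stands at 25.6 in Gcn2-/- ASNase and 37.1 in Atf4-/- ASNase, with bars above those of the other 4 groups, while the bars of Cebpa, Cebpb and Cebpg overlap in every pair of groups.

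Under PBS the liver expressed the family in a steep order. Since FPKM is per length, levels can be set beside each other. In WT PBS, Cebpa was the highest at 138 FPKM, followed by Cebpb at 63.4, Cebpg at 13.9, Cebpd at 5.11 and Cebpe at 3.75. Cebpa ranked 679 among the 11333 genes over 1 FPKM in that group, whereas Cebpd ranked 7159 and Cebpe 8013. The order of the 5 genes was the same in Atf4-/- PBS, while in Gcn2-/- PBS Cebpe and Cebpd, at 3.58 and 3.35 FPKM with overlapping intervals, changed places. Over the 6 groups the highest value of Cebpd was 11.1 times its lowest. The same ratio was 3.90 for Cebpe, 2.96 for Cebpa, 2.72 for Cebpb and 1.97 for Cebpg.

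The 3 comparisons among PBS groups asked what deletion of Gcn2 or Atf4 did without ASNase, and no member was called in them. Of the 5 genes, 0 were called in Gcn2-/- PBS against WT PBS, where 1.04% of all eligible genes were, 0 in Atf4-/- PBS against WT PBS, where 1.12% were, and 0 in Atf4-/- PBS against Gcn2-/- PBS, where 0.976% were. The absolute differences of Cebpa, Cebpe and Cebpg were all under 0.5 on the log2 scale. Cebpb was lower in Gcn2-/- PBS than in WT PBS by value, with a log2 difference of -0.74 ± 1.07 (error combined from both intervals), and Cebpd was higher in Atf4-/- PBS than in Gcn2-/- PBS by value, with a log2 difference of 1.0 ± 1.12. Both were within their error.

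The response to ASNase was asked within each strain. In WT mice 0 of 5 members were called, beside 0.881% of all genes, and the log2 changes of the 5 genes lay between 0.12 for Cebpa and 0.60 for Cebpg, all positive and all within errors of about 1. In Gcn2-/- mice 1 of 5 was called, beside 3.69% of all genes, and in Atf4-/- mice 1 of 5, beside 7.37%. The gene called was Cebpd in both strains. With 5 genes, a count of 1 is not a statement about the family, so the genes are described one at a time.

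Cebpd, the acute phase member, was low in the 3 PBS groups and in WT ASNase and several times higher in both knockout groups given ASNase. Its FPKM was 5.11 (2.19 to 8.03) in WT PBS, 6.42 (3.09 to 9.75) in WT ASNase, 3.35 (1.33 to 5.36) in Gcn2-/- PBS, 25.6 (14.9 to 36.3) in Gcn2-/- ASNase, 6.80 (3.27 to 10.3) in Atf4-/- PBS and 37.1 (20.2 to 54.1) in Atf4-/- ASNase. The intervals of the knockout ASNase groups lay above those of all 4 other groups and overlapped each other. After ASNase, Cebpd rose 7.45-fold in Gcn2-/- liver (log2 change 2.90 ± 1.04) and 5.39-fold in Atf4-/- liver (log2 change 2.43 ± 0.99), folds on the scale with 0.1 added, against a log2 change of 0.32 ± 1.09 in WT. Of 9218 genes eligible in Gcn2-/- mice, 64 had a log2 change at least as high as that of Cebpd, itself included, and of 9485 in Atf4-/- mice 148 did. In rank by level it moved from 8353 of 11114 genes over 1 FPKM in Gcn2-/- PBS to 2579 of 11285 in Gcn2-/- ASNase, and from 6357 of 11379 to 1850 of 11308 in the Atf4-/- groups.

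Between strains under ASNase, 1 of 5 members was called in Gcn2-/- against WT, beside 4.41% of all genes, 2 of 5 in Atf4-/- against WT, beside 8.25%, and 0 of 4 eligible members in Atf4-/- against Gcn2-/-, beside 3.19%. Cebpd was higher in Gcn2-/- ASNase than in WT ASNase by 1.98 ± 0.95 on the log2 scale and higher in Atf4-/- ASNase than in WT ASNase by 2.51 ± 0.99. These comparisons share the knockout ASNase groups with the responses above and are not separate support. Atf4-/- ASNase exceeded Gcn2-/- ASNase by 0.53 ± 0.89, which was within error. The difference of the ASNase responses themselves was 2.57 ± 1.51 on the log2 scale between Gcn2-/- and WT, 2.11 ± 1.47 between Atf4-/- and WT, and 0.47 ± 1.43 between Gcn2-/- and Atf4-/-. The first pair of differences exceeded both the combined error of the 4 values and 1.5, as did 5.42% and 7.92% of all genes tested, and the last did not.

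Cebpa, the metabolic member, had its lowest values in the same groups in which Cebpd was highest, but was not called in any comparison. Its FPKM was 138 (73.2 to 202) in WT PBS, 149 (78.2 to 221) in WT ASNase, 192 (94.2 to 290) in Gcn2-/- PBS, 79.9 (42.7 to 117) in Gcn2-/- ASNase, 151 (79.4 to 223) in Atf4-/- PBS and 64.9 (34.7 to 95.0) in Atf4-/- ASNase. All intervals overlapped. The log2 change after ASNase was -1.27 ± 1.0 in Gcn2-/- liver and -1.22 ± 0.96 in Atf4-/- liver, each larger than the combined error and under the fold limit, and 0.12 ± 0.96 in WT liver. In the order of levels the 4 groups from Gcn2-/- PBS to WT PBS stood above the remaining pair, yet no neighbours in that order differed beyond their intervals. The difference of responses was -1.38 ± 1.39 between Gcn2-/- and WT and -1.34 ± 1.36 between Atf4-/- and WT, both just within error.

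Cebpb, the other acute phase member, was not called in any comparison by the interval rule. By the paper's own test, with a q value, Cebpb was significantly raised after ASNase in Gcn2-/- livers alone. Its FPKM was 63.4 (29.5 to 97.4) in WT PBS, 82.5 (42.3 to 123) in WT ASNase, 38.0 (18.3 to 57.7) in Gcn2-/- PBS, 103 (50.0 to 157) in Gcn2-/- ASNase, 56.3 (27.1 to 85.5) in Atf4-/- PBS and 69.2 (28.3 to 110) in Atf4-/- ASNase. It was lowest and highest in the PBS and ASNase groups of the same strain, Gcn2-/-, and even there the intervals overlapped. Its log2 change after ASNase was 1.44 ± 1.05 in Gcn2-/- liver, above the combined error and just under the fold limit, 0.38 ± 1.04 in WT and 0.30 ± 1.13 in Atf4-/- liver. Whereas Cebpd had its highest value in Atf4-/- ASNase, Cebpb there was 0.58 lower on the log2 scale than in Gcn2-/- ASNase, with an error of 1.13. In the annotation 312 exonic bases of Cebpb are shared with Tmem189 on the other strand, and the table gives Cebpb the locus of 9 listed genes. The library kit does not mark strand, so reads of this stretch cannot be assigned, and Tmem189 was at 7.75 and 7.73 FPKM in the WT groups, 5.76 and 10.3 in Gcn2-/- and 8.56 and 18.5 in Atf4-/- under PBS and ASNase, below Cebpb throughout.

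Cebpe, the granulocyte member, was near the lower limit of the call rule. Its FPKM was 3.75 (1.51 to 6.00) in WT PBS, 5.25 (2.42 to 8.09) in WT ASNase, 3.58 (1.48 to 5.69) in Gcn2-/- PBS, 2.16 (0.652 to 3.68) in Gcn2-/- ASNase, 5.0 (2.22 to 7.77) in Atf4-/- PBS and 1.35 (0.335 to 2.36) in Atf4-/- ASNase. The intervals of Atf4-/- ASNase and WT ASNase alone were separate, by a narrow margin between 2.36 and 2.42. There Cebpe was lower in Atf4-/- mice by a log2 difference of -1.89 ± 1.27, and with 1 in place of 0.1 added to FPKM the difference was -1.41 and the call was lost. Within Atf4-/- mice the log2 change was -1.82 ± 1.28 with intervals that overlapped between 2.22 and 2.36, in Gcn2-/- mice -0.70 ± 1.27 and in WT 0.47 ± 1.14. The response in Atf4-/- mice differed from that in WT by -2.29 ± 1.71. Both comparisons use Atf4-/- ASNase, so they are not separate support.

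Cebpe was set beside other granulocyte genes of the liver. Among 16 neutrophil and granule genes 3 exceeded an FPKM of 3 in any group. Ltf, Camp, Ngp, Elane and Mpo were at or under 0.3 FPKM in every group, and Ly6g was listed at 0 in 5 groups. The summed FPKM of the list under PBS was 12.2 for WT, 15.9 for Gcn2-/- and 33.5 for Atf4-/- liver, and under ASNase it was 7.48, 30.5 and 21.1. Prtn3, a granule protease, was at 26.3 FPKM in Gcn2-/- ASNase, most of the sum there, and at 14.1 in Atf4-/- PBS, with intervals that started at 0. In Atf4-/- PBS, which had the highest sum, S100a8 and S100a9 were at 7.89 and 7.07 FPKM. S100a9, a calcium-binding protein of neutrophils, fell from 5.64 FPKM (1.44 to 9.83) to 0.171 (0 to 0.518) in Gcn2-/- mice after ASNase, the 1 gene of the list called in a response. Cebpe stood above Ltf, Camp, Ngp, Elane and Mpo in every group, but below Prtn3 in Gcn2-/- ASNase and in both Atf4-/- groups. S100a8 and S100a9 exceeded Cebpe in both knockout PBS groups and in Atf4-/- ASNase. In Gcn2-/- mice Cebpe was not called where S100a9 was. The part of granulocytes in the values of Cebpe was not tested.

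Cebpg, the ATF4 partner, varied least of the 5 genes. Its FPKM was 13.9 (7.22 to 20.5) in WT PBS, 21.0 (9.59 to 32.5) in WT ASNase, 16.9 (8.88 to 25.0) in Gcn2-/- PBS, 18.1 (9.05 to 27.1) in Gcn2-/- ASNase, 17.5 (8.48 to 26.6) in Atf4-/- PBS and 27.3 (9.17 to 45.4) in Atf4-/- ASNase. All intervals overlapped, and the highest value stood in a group deleted for Atf4. ASNase was followed by a log2 change of 0.60 ± 1.04 in WT liver, 0.09 ± 0.99 in Gcn2-/- liver and 0.63 ± 1.21 in Atf4-/- liver. The responses of Gcn2-/- and WT differed by -0.51 ± 1.44, so these intervals leave room for a change or a difference of either sign.

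**Figure D2:**
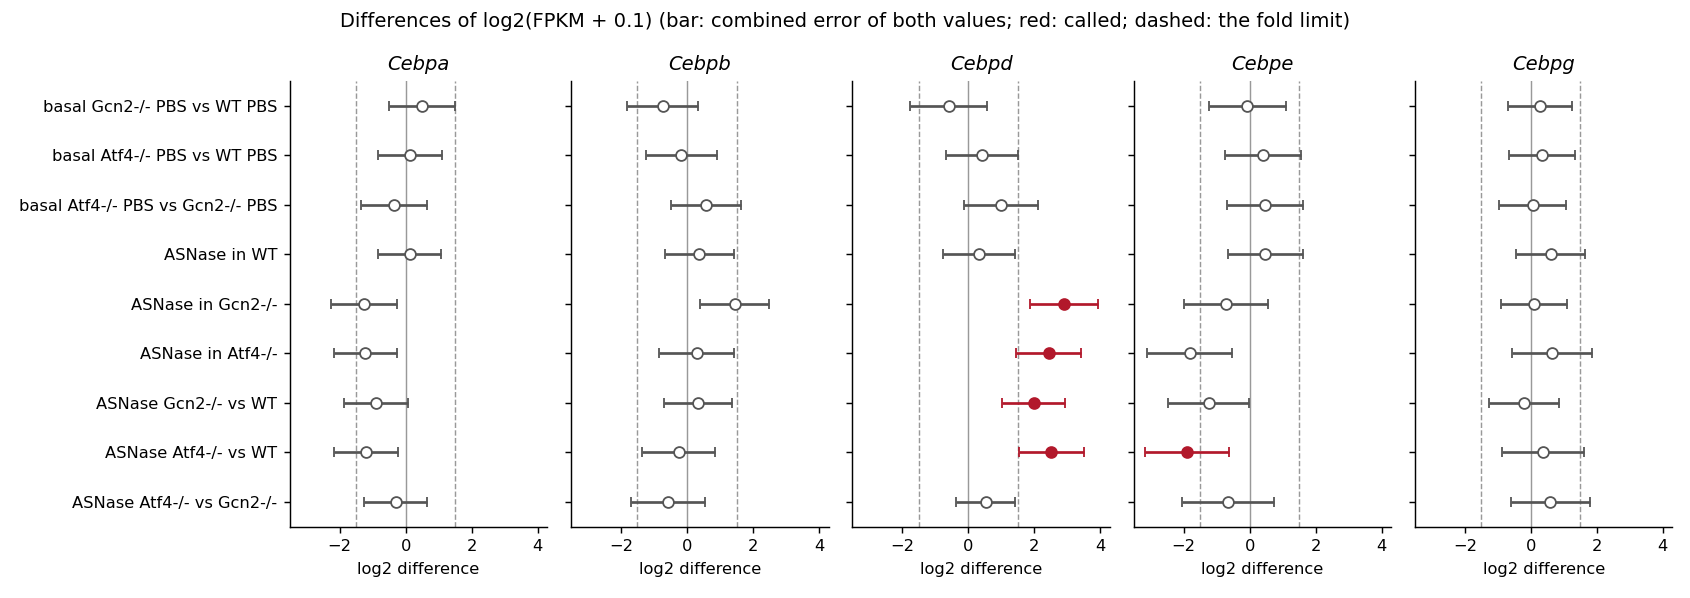
Differences of log2(FPKM + 0.1) for the 5 genes (panels) in the 9 comparisons (vertical axis), with bars for the combined error of both values, red points where a gene was called and dashed lines at the limit of 1.5. Red points appear 4 times for Cebpd, all to the right, and once for Cebpe, to the left, at -1.89.

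The make-up of the family differed between groups more than its sum. The 5 FPKM values summed to 224 under PBS and 265 under ASNase in WT liver, to 254 and 229 in Gcn2-/- liver and to 237 and 199.8 in Atf4-/- liver. Cebpa supplied 61.5%, 75.7% and 63.8% of this sum in the PBS groups of WT, Gcn2-/- and Atf4-/- mice and 56.5%, 34.9% and 32.5% in the ASNase groups. Cebpd supplied 2.28%, 1.32% and 2.87% under PBS and 2.43%, 11.2% and 18.6% under ASNase in the same order of strains. By value, Cebpb was the most abundant member in Gcn2-/- ASNase, at 45.1%, and in Atf4-/- ASNase, at 34.6%, and Cebpa in the other groups. The order of Cebpb and Cebpa was within error in both knockout ASNase groups. It was also within error in WT ASNase, where the log2 ratio of Cebpb to Cebpa was -0.86 ± 0.98. The ratio of Cebpb to Cebpa was 0.461 and 0.552 in WT PBS and WT ASNase, 0.198 and 1.29 in Gcn2-/- and 0.373 and 1.07 in Atf4-/- mice. On the log2 scale the ratio was -2.34 ± 1.05 in Gcn2-/- PBS and 0.37 ± 1.0 in Gcn2-/- ASNase, whereas in the Atf4-/- groups it was -1.42 ± 1.01 and 0.09 ± 1.08, and the shares carry the errors of all members.

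**Figure D3:**
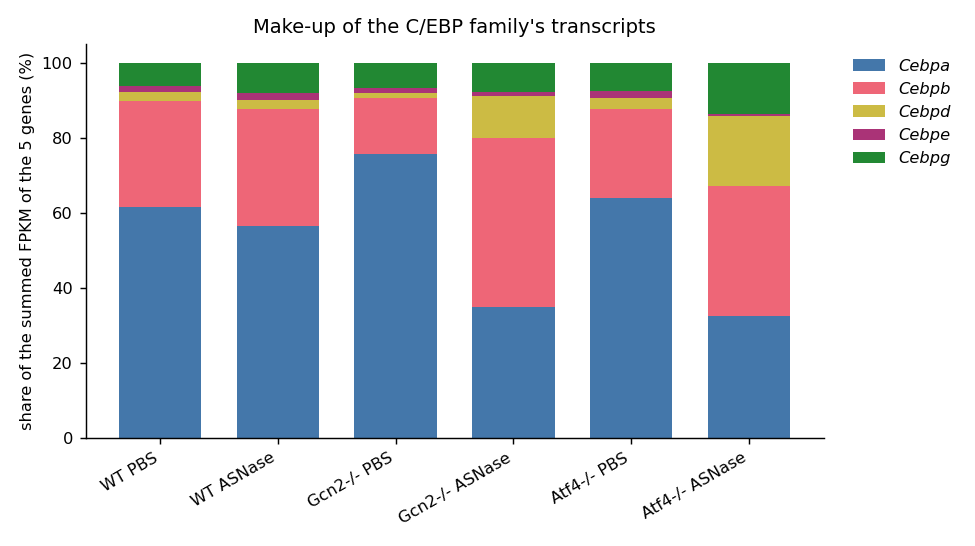
Share of each C/EBP gene in the summed FPKM of the 5 genes (vertical axis, percent) in the 6 groups, stacked in the order Cebpa at the bottom to Cebpg at the top. Cebpa holds 56.5% to 75.7% in 4 groups and 34.9% and 32.5% in the Gcn2-/- and Atf4-/- ASNase groups, where Cebpd holds 11.2% and 18.6%.

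Genes that other work places upstream of the family were taken from a list of 18 cytokines, receptors, signalling factors and binding proteins. After ASNase none of 11 eligible genes was called in WT, 4 of 13 were called higher in Gcn2-/- and 3 of 13 in Atf4-/- mice, and none was called lower. Over all genes 69 of 9084, 144 of 9218 and 260 of 9485 were called higher. The median log2 change of the list was 0.14 for WT mice, 0.62 for Gcn2-/- mice and 0.41 for Atf4-/- mice, and over all genes -0.01, 0.02 and 0.08. Il1r1, the receptor of interleukin 1, rose from 6.88 to 78.0 FPKM in Gcn2-/- liver (log2 change 3.48) and from 17.6 to 105 in Atf4-/- liver (2.57), and was at 6.09 and 7.64 in WT PBS and WT ASNase. Il1r1 was also higher in Atf4-/- PBS than in WT PBS, by 1.52 on the log2 scale. Socs3, a feedback inhibitor induced by STAT3, rose from 4.93 to 26.8 FPKM in Gcn2-/- and from 7.23 to 56.6 in Atf4-/- liver. Osmr, the oncostatin M receptor, rose from 0.714 to 3.42 and from 1.04 to 9.22 FPKM in the same strains. Il1b, a cytokine made mainly by macrophages, was called in Gcn2-/- mice alone, with 2.29 and 11.9 FPKM, and was at 4.96 and 6.08 in the Atf4-/- groups, a difference between strains that was not tested. Stat3 itself, the transcription factor downstream of interleukin 6, had values of 63.9 in Gcn2-/- ASNase and 120 in Atf4-/- ASNase against 23.9 and 44.2 under PBS, with overlapping intervals.

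**Figure D4:**
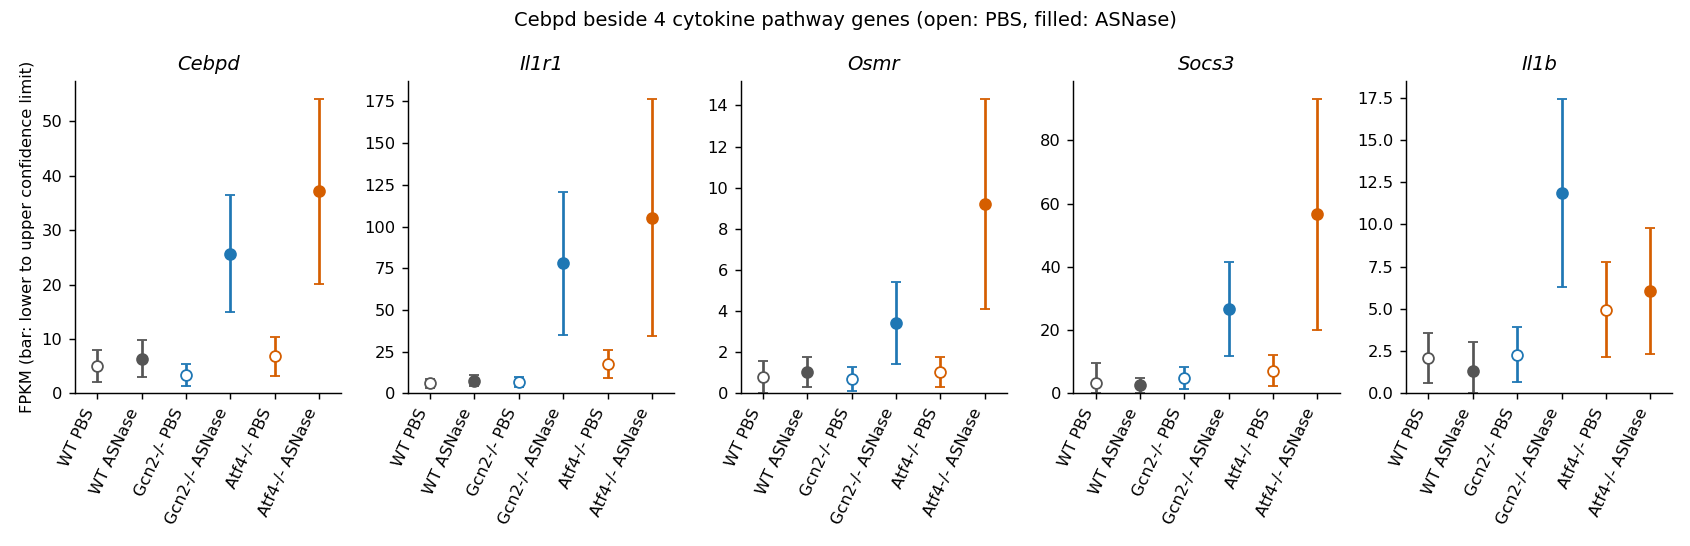
FPKM of Cebpd beside Il1r1, Osmr, Socs3 and Il1b (vertical axes, linear and starting at 0, each with its own scale) in the 6 groups, with bars from the lower to the upper confidence limit. Cebpd, Il1r1, Osmr and Socs3 have lower values in the PBS groups and in WT ASNase than in Gcn2-/- ASNase and Atf4-/- ASNase. Il1r1 is at 17.6 in Atf4-/- PBS against 6.09 in WT PBS. Il1b is at 11.9 in Gcn2-/- ASNase and 6.08 in Atf4-/- ASNase. The genes beside Cebpd were picked for their change after ASNase.

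Acute phase genes, the usual targets of C/EBPβ and C/EBPδ in liver, were followed in a list of 23, of which 8 had no estimate in some group. None of 21 eligible genes was called in WT after ASNase, 6 of 17 were called higher in Gcn2-/- and 5 of 17 in Atf4-/- mice, and none was called lower. All genes called higher numbered 69 of 9084, 144 of 9218 and 260 of 9485. WT mice had a median log2 change of -0.21, Gcn2-/- mice of 2.94 and Atf4-/- mice of 2.54, beside -0.01, 0.02 and 0.08 over all genes. Orm3, an orosomucoid, rose from 1.01 to 92.1 FPKM in Gcn2-/- and from 10.9 to 111 in Atf4-/- liver. Cd14, a receptor for bacterial lipopolysaccharide, rose from 2.07 to 57.1 and from 3.05 to 82.6 FPKM. Il1rn, the antagonist of interleukin 1, rose from 7.94 to 40.5 and from 4.10 to 136 FPKM. Some of the list stood higher in knockout mice before ASNase, with 2 of 21 called higher in Gcn2-/- PBS and 3 of 22 in Atf4-/- PBS against WT PBS, beside 35 of 8920 and 32 of 9039 of all genes. Saa3, a serum amyloid, was at 876 FPKM in Gcn2-/- PBS against 17.7 in WT PBS and 23.2 in Atf4-/- PBS. The values of Cebpd and Cebpb in Gcn2-/- PBS were their lowest, but within error of the other PBS groups, and a link to Saa3 was not tested. Saa3 rose from 23.2 to 672 FPKM in Atf4-/- mice after ASNase. In Gcn2-/- mice it was at 876 FPKM (57.6 to 1694) under PBS and at 12427 (0 to 29543) under ASNase, its highest value, with overlapping intervals.

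Macrophages, which hold C/EBP proteins too, were checked by 12 marker genes, each over 3 FPKM in at least 1 group. Their summed FPKM was 503 under PBS and 271 under ASNase in WT liver, 327 and 474 in Gcn2-/- liver, and 563 and 349 in Atf4-/- liver, so the sum stood higher under ASNase in Gcn2-/- mice and lower in WT and Atf4-/- mice. Marco, a scavenger receptor, rose from 8.32 to 118 FPKM in Gcn2-/- and from 9.22 to 67.3 in Atf4-/- liver. Lyz2 was at 54.1 and 134 FPKM in Gcn2-/- liver under PBS and ASNase, with overlapping intervals. Marco and Lyz2 gained more FPKM there than any other marker, so the sum does not speak for all markers. Clec4f was at 67.3 and 15.9 FPKM and Vsig4 at 17.7 and 8.56 in the same groups, also with overlapping intervals. Cd5l, of resident liver macrophages, fell from 91.6 to 31.3 FPKM in Atf4-/- liver. Under ASNase 12 of the 12 markers had lower values than under PBS in WT mice, 11 in Atf4-/- mice and 4 in Gcn2-/- mice, where the other 8 had higher values. The part of these cells in the values of Cebpb and Cebpd was not tested. Adipocyte markers, of a further tissue rich in Cebpa, were low, with 3 of 7 over 3 FPKM in any group. Fabp4, which binds fatty acids, rose from 19.3 to 74.8 FPKM in Gcn2-/- mice after ASNase. Cidec, of the same list, was at 1.82 FPKM under PBS and 3.65 under ASNase in that strain, with overlapping intervals. Adipoq, Plin1, Cfd and Retn had lower values under ASNase than under PBS there, none of them over 0.641 FPKM. Cfd, the complement factor adipsin, was called lower under PBS in both knockout strains, at 0.641 in Gcn2-/- and 1.91 in Atf4-/- against 10.8 FPKM in WT.

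Targets of C/EBPα in hepatocyte metabolism were taken from a list of 15. After ASNase none was called lower among 13 eligible genes in WT, 1 of 13 in Gcn2-/- and 4 of 12 in Atf4-/- mice, beside 11, 196 and 439 of all genes, and none was called higher. The median log2 change was -0.11, -0.27 and -1.21. Otc, the urea cycle enzyme ornithine transcarbamylase, fell from 339 to 96.5 FPKM in Gcn2-/- liver (log2 change -1.81) and from 239 to 15.7 in Atf4-/- liver (-3.92), against 283 and 234 in the WT groups. Adh1, an alcohol dehydrogenase, fell from 1380 to 119 FPKM in Atf4-/- liver, Hsd11b1, which regenerates active glucocorticoid, from 424 to 38.1 and G6pc, the last enzyme of glucose release, from 154 to 40.8. By value 10 genes fell and 3 rose in Gcn2-/- mice, and 10 fell and 2 rose in Atf4-/- mice. Hamp rose from 4466 to 11558 FPKM in Gcn2-/- and from 2314 to 11472 in Atf4-/- liver. Tat rose from 613 to 1987 and from 952 to 2013. Intervals of Hamp and Tat overlapped between PBS and ASNase in both strains. Against WT ASNase, 1 gene was called higher and 4 lower in Atf4-/- ASNase. The values of Cebpa in the knockout ASNase groups were 79.9 and 64.9 FPKM, with overlapping intervals. The targets called lower after ASNase were 1 of 13 eligible in the first strain and 4 of 12 in the second. Hnf4a, another factor that governs such genes, was at 145 (65.6 to 225) and 213 FPKM (88.7 to 337) in the same groups. In WT ASNase it was at 148 (67.0 to 229), and these intervals overlapped. A link of Cebpa or Hnf4a to these targets was not tested.

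Amino acid response genes, at which C/EBPγ pairs with ATF4, were followed in a list of 12. After ASNase 1 of 8 eligible genes was called higher in WT, 0 of 6 in Gcn2-/- and 4 of 7 in Atf4-/- mice, beside 69 of 9084, 144 of 9218 and 260 of 9485 of all genes, while Cebpg itself was called in no strain. Trib3, a pseudokinase and ATF4 target, rose from 5.46 to 19.5 FPKM in WT and from 3.63 to 150 in Atf4-/- mice, and was at 7.52 and 3.39 in the Gcn2-/- groups. Asns, asparagine synthetase, rose from 0.591 to 20.1 FPKM in Atf4-/- liver, Chac1, which degrades glutathione, from 3.06 to 23.7 and Nupr1, a stress-induced chromatin protein, from 0.501 to 7.07. The list had a median log2 change of 1.08 in WT mice, of -0.04 in Gcn2-/- mice and of 2.91 in Atf4-/- mice, where the medians over all genes were -0.01, 0.02 and 0.08. The corresponding changes of Cebpg were 0.60, 0.09 and 0.63. The list medians cover only eligible genes, 8, 6 and 7 of 12, which were not the same in each strain. Genes low under PBS entered only where their ASNase value was over 3 FPKM, which can raise a median. Psat1, at 0.111 and 1.28 FPKM in the Atf4-/- groups, was not eligible there. The medians are therefore no comparison of strains.

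**Figure D5:**
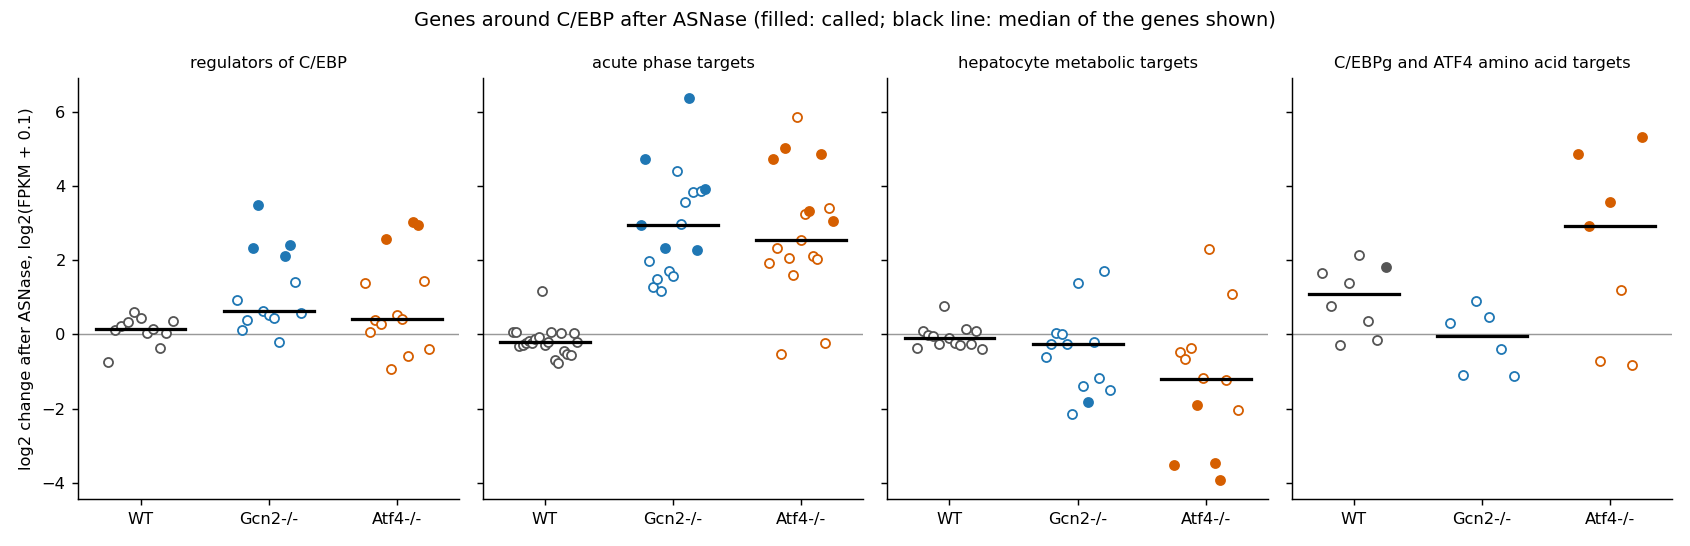
Log2 change of FPKM + 0.1 after ASNase (vertical axis) of every eligible gene of 4 lists (panels) in WT, Gcn2-/- and Atf4-/- mice (horizontal axis), with filled points for genes called and a black line at the median. Acute phase genes lie around medians of 2.94 and 2.54 in Gcn2-/- and Atf4-/- mice and -0.21 in WT, and amino acid response genes around 1.08, -0.04 and 2.91 in WT, Gcn2-/- and Atf4-/- mice. The eligible genes of a list differ between strains.

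Other basic leucine zipper genes that pair with C/EBP proteins were taken from a list of 10. None of 6 eligible genes was called in WT after ASNase, 1 of 7 was called higher in Gcn2-/- and 2 of 7 in Atf4-/- mice, and over all genes 69 of 9084, 144 of 9218 and 260 of 9485 were called higher in the same order. Jun, a subunit of AP-1, rose from 5.67 to 21.4 FPKM in Gcn2-/- mice and was at 6.24 (3.29 to 9.19) and 21.8 (8.40 to 35.2) in the Atf4-/- groups. Atf3, a stress-induced repressor, rose from 0.896 to 13.3 FPKM and Atf5, a relative of ATF4 abundant in liver, from 80.0 to 339 in Atf4-/- mice. Ddit3, which encodes the C/EBP homologous protein CHOP, was at 73.1 FPKM (4.79 to 141) in Atf4-/- ASNase and between 8.87 and 18.7 in the other 5 groups, with overlapping intervals. Nfil3, a repressor with a related zipper, rose from 7.11 to 25.7 FPKM in Gcn2-/- mice (log2 change 1.84) and was called higher in both knockout ASNase groups than in WT ASNase, at 26.5 FPKM in Atf4-/- ASNase, as Cebpd was.

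For each member the genes with the most similar pattern were found by Pearson's r of log2(FPKM + 0.1) over the 6 group values, among 9814 genes. With 6 points, all made from the same libraries and dominated for many genes by the knockout ASNase groups, high values are common, and r is given as a description. For Cebpd the closest were Sema6b (r = 0.999), Vps52 (0.997) and Hmgxb3 (0.997), and 930 genes or 9.48% had r over 0.9. For Cebpa they were Auh (0.998), Igfbp2 (0.996) and Trmt2b (0.995), with 1012 genes over 0.9. For Cebpe they were Rgs5 (0.994), Gm608 (0.992) and Fnip2 (0.992), with 645 genes over 0.9. For Cebpg they were Ddx59 (0.995), Ing5 (0.992) and Nipbl (0.989), with 265 genes. Cebpb had the least shared pattern, with AA986860 (0.986), Zbtb17 (0.979) and Kif2a (0.976) and 32 genes over 0.9. Within the family r was -0.98 for Cebpa and Cebpd, 0.88 for Cebpa and Cebpe and 0.66 for Cebpb and Cebpd over the 6 groups.

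Of the neighbours of the members, Pepd, 1714 bases from Cebpg, lay between 12.4 and 24.1 FPKM, in the same range as Cebpg, and Slc7a10, the next coding gene after Cebpa, under 0.2 FPKM in every group. Slc7a8, 10035 bases from Cebpe, lay between 0.884 and 1.73 FPKM. Spidr shares 562 exonic bases with Cebpd on the other strand in the GENCODE M21 annotation, but the locus the table gives for Cebpd ends at 15888466, before that stretch begins. Spidr was at 1.33 and 1.35 FPKM in the WT groups, 1.39 and 2.88 in Gcn2-/- and 1.48 and 3.51 in Atf4-/- mice under PBS and ASNase, below Cebpd in every group. Mzt2, on the other side of Cebpd, lay between 11.5 and 16.1 FPKM.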

How the data were processed

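Liver RNA-Seq of 18 mice in 6 groups was analysed, grouped by the sample labels. The authors prepared poly-A libraries with a kit that does not mark strand, aligned reads to mm10 with TopHat and Bowtie, and estimated expression with Cufflinks and Cuffdiff. The deposited values are FPKM as the authors' Cuffdiff run gave them, 1 value for each gene and group from 3 libraries together, with confidence limits in FPKM and a status. All 18 value columns were assigned to a group, and 0 were left outside. Counts and single-library values were not used here, so depth could not be read from the table, and no p-value was computed. In all, 160 values of 45 genes had a status other than OK and entered no comparison.

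Groups were compared with Python 3.11.15, numpy 2.4.6 and pandas 2.3.3 on log2(FPKM + 0.1). Eligible genes had valid estimates above 0 in both groups and an FPKM over 3 in either. A gene low in the reference group was thus eligible only through the other group, so list medians can cover different genes in each comparison. A gene was called where, besides, intervals were apart and log2 values more than 1.5 from each other. Both limits follow the supplementary methods of the study, and the interval condition replaces its q value. The error of a log2 difference is the root of the summed squares of both values' distances to their upper limits, each divided by FPKM + 0.1 and ln 2. A difference of ASNase responses combines 4 such errors. The 11 gene lists and the 5 members were chosen with earlier results of these data known, so neither is independent support. Named genes were the members, their neighbours, up to 4 genes of each list with the largest change among those called after ASNase, list genes needed as a check, and the 3 genes most like each member. Promoters were from RefSeq (GRCm38.p6), which matched 3 of 5 members, Cebpa, Cebpb and Cebpg. The TATA box, the CRE-like and the CCAAT motif were searched after the other motifs had no match. Alternatives were a pseudocount of 1 or 0.01, an FPKM limit of 1 or none, a log2 limit of 1, a combined interval and median-ratio scaling. A planned comparison of protein sequences was not run.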

Additional observations from a re-analysis of the deposited data

Results flagged for a closer look

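The ASNase responses of 2 members differed between strains by more than 1.5 on the log2 scale and by more than the combined error of the 4 group values. For Cebpd the response in Gcn2-/- mice exceeded that in WT by 2.57, from log2 changes of 2.90 and 0.32. Its response in Atf4-/- mice exceeded that in WT by 2.11, from log2 changes of 2.43 and 0.32. For Cebpe the response in Atf4-/- mice was below that in WT, with a difference of -2.29 from log2 changes of -1.82 and 0.47. The WT response enters all 3 differences, so they are not separate support. Over all genes 5.42% of responses differed by as much between Gcn2-/- and WT mice and 7.92% between Atf4-/- and WT mice, and 4.58% between Gcn2-/- and Atf4-/- mice, where no member did. The errors come from the intervals of group values and not from a replicate test.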

How the results depend on the processing

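No paired analysis was possible because the table holds 1 value per group, and for the same reason no library could be left out. Cebpd kept its 4 calls under all 7 alternatives. With the combined interval in place of intervals that do not overlap, 2 members instead of 1 were called in Atf4-/- mice after ASNase, since Cebpe (log2 change -1.82) was added. With a pseudocount of 1, 1 member instead of 2 was called in Atf4-/- against WT under ASNase, since Cebpe (-1.41) was lost. Without a limit on FPKM the genes called in all numbered 144 instead of 93 in Gcn2-/- against WT under PBS, 153 instead of 101 in Atf4-/- against WT under PBS and 124 instead of 80 in WT after ASNase. The other 313 log2 differences of members under these alternatives kept their direction and stayed called or not called as before. With a log2 limit of 1, some of them lay over the limit, among them those of Cebpa, but overlapping intervals left them uncalled. The 15 differences of responses and 6 ratios were recomputed with a pseudocount of 1 only. They kept their direction, and the differences of responses kept their side of the limits. Because limits lay a median of 51.3% to 54.2% from the value, differences such as those of Cebpa (-1.27 and -1.22) lie at the edge of what the table can show.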

Other observations

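Cebpz carries a C/EBP name but encodes a CCAAT-binding protein without the zipper of the family, and it was therefore not a member. It was at 9.60 FPKM (5.10 to 14.1) in WT PBS, 9.59 (5.18 to 14.0) in WT ASNase, 10.4 (5.44 to 15.4) in Gcn2-/- PBS, 10.4 (5.64 to 15.2) in Gcn2-/- ASNase, 9.03 (4.85 to 13.2) in Atf4-/- PBS and 10.7 (5.88 to 15.5) in Atf4-/- ASNase. All of its intervals overlapped. It was chosen for its name, after the members' values were known.

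Among the zipper factors of the daily rhythm, Dbp was at 44.1 FPKM under PBS and 81.2 under ASNase in WT liver, at 96.8 and 13.5 in Gcn2-/- liver and at 48.1 and 5.15 in Atf4-/- liver. Its intervals reached 0 or close to it in most groups, and it was not called in any comparison.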
